A study of Mus musculus with 5 samples.

Results

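The 10 genes of lipid uptake and milk fat synthesis described here were *Lpl*, *Cd36*, *Fabp3*, *Fabp4*, *Fasn*, *Acly*, *Scd1*, *Scd2*, *Plin2* and *Xdh*. They were taken by symbol from the 27998 genes that the count matrices list, and each symbol matched a single gene. They were chosen by name, without a threshold on a measured value, but with earlier results of these data known. Levels are given for all 10.

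Fat for milk reaches the mammary epithelium by 2 routes. Lipoprotein lipase (*Lpl*) frees fatty acids from circulating triglyceride at the capillary wall, where the endothelial protein GPIHBP1 holds it, and the fatty acid translocase *Cd36* and the fatty acid binding proteins *Fabp3* and *Fabp4* take part in their entry and transport. Within the secretory cell, ATP citrate lyase (*Acly*) supplies acetyl-CoA, fatty acid synthase (*Fasn*) builds palmitate from it, and the stearoyl-CoA desaturases *Scd1* and *Scd2* insert a double bond. Perilipin 2 (*Plin2*) coats the lipid droplet, and xanthine dehydrogenase (*Xdh*) acts with butyrophilin (*Btn1a1*) when the droplet is enveloped by the apical membrane. None of the libraries came from pregnant or lactating mice.

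Single-cell RNA was measured in 5 libraries of number 4 mammary glands from ovariectomized female BALB/cj mice, 1 library per group. Mice of all groups had lost their ovaries and were treated for 1 week beginning 20 weeks after surgery, and the labels give an age of 30 weeks. OVX mice had vehicle alone. OVX_E2 mice had 17β-estradiol (E2) at 1 µg per animal, OVX_E2_P4 mice had E2 with progesterone (P4) at 0.1 mg per animal, both by daily intraperitoneal injection, and OVX_E2_PBDE and OVX_E2_P4_PBDE mice also ate food with polybrominated diphenyl ethers (PBDE), flame retardants given here as 7.1 mg of BDE-47, 0.4 mg of BDE-100 and 0.9 mg of BDE-153 per kg. Lymph nodes were removed, glands were dissociated without sorting, and about 4000 cells were loaded per library. The number of mice in a library is not given in the sources used here. With 1 library per group, an effect of treatment cannot be told apart from a difference between animals or preparations.

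The matrices held 2233 to 3536 barcodes and 19982067 to 42012988 UMIs (unique molecular identifiers, each a captured transcript) per library, with a median of 5345 to 8698 UMIs per barcode. Libraries shared 80 barcode sequences, 0.561% of the distinct ones. Clusters of each library were named from marker genes as fibroblast-like, L-Hor-like (hormone-sensing luminal), L-Alv-like (alveolar luminal), basal-like, endothelial-like or hematopoietic-like. Epithelial clusters with proliferation markers were called proliferating epithelial and kept apart. They held 132 (OVX_E2), 35 (OVX_E2_PBDE), 108 (OVX_E2_P4) and 39 (OVX_E2_P4_PBDE) barcodes, and OVX had no such cluster at its lower clustering resolution of 0.3. At a resolution of 1.0, OVX had 32 proliferating epithelial barcodes, and its barcodes with markers of both luminal lineages went from 195 to 163. A cluster of 21 barcodes in OVX_E2_P4_PBDE that mixed other lineages was left out. A cluster with markers of both luminal lineages was called mixed luminal and kept apart. OVX held no L-Alv-like cluster. Endothelial-like barcodes numbered 33 (OVX), 44 (OVX_E2), 72 (OVX_E2_PBDE), 28 (OVX_E2_P4) and 58 (OVX_E2_P4_PBDE), against 885 to 2564 fibroblast-like and 92 to 748 L-Hor-like barcodes. Their endothelial markers summed to between 2776 and 3460 CPM (UMIs per 1000000 UMIs of the class), against 6.34 to 14.5 CPM in fibroblast-like cells. They also carried pericyte markers at 871 to 1326 CPM, and between 31.0% and 69.7% of them had over 5% mitochondrial UMIs. In OVX_E2_P4 the endothelial-like barcodes further held L-Hor markers at 1252 CPM, 16.2% of the L-Hor-like level. The 6 fibroblast markers, led by collagens, gave 3.77% to 9.18% of their fibroblast-like level in L-Hor-like cells and 2.65% to 4.98% in L-Alv-like cells. Adipocytes were nearly absent from the barcodes, with 0 to 2 UMIs of *Adipoq* per library, so values below say nothing of the fat pad.

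A level below is the sum of a gene's UMIs over the cells of a class in CPM, and levels are compared between classes within a gene, never between genes. Classes were compared by edgeR's quasi-likelihood test on these sums with the library as a block and Benjamini-Hochberg adjustment over all genes tested. The libraries entering as replicates of a class had different treatments, and the spread includes those differences. The 10 genes were kept out of the genes used for clustering and naming.

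**Figure D1:**
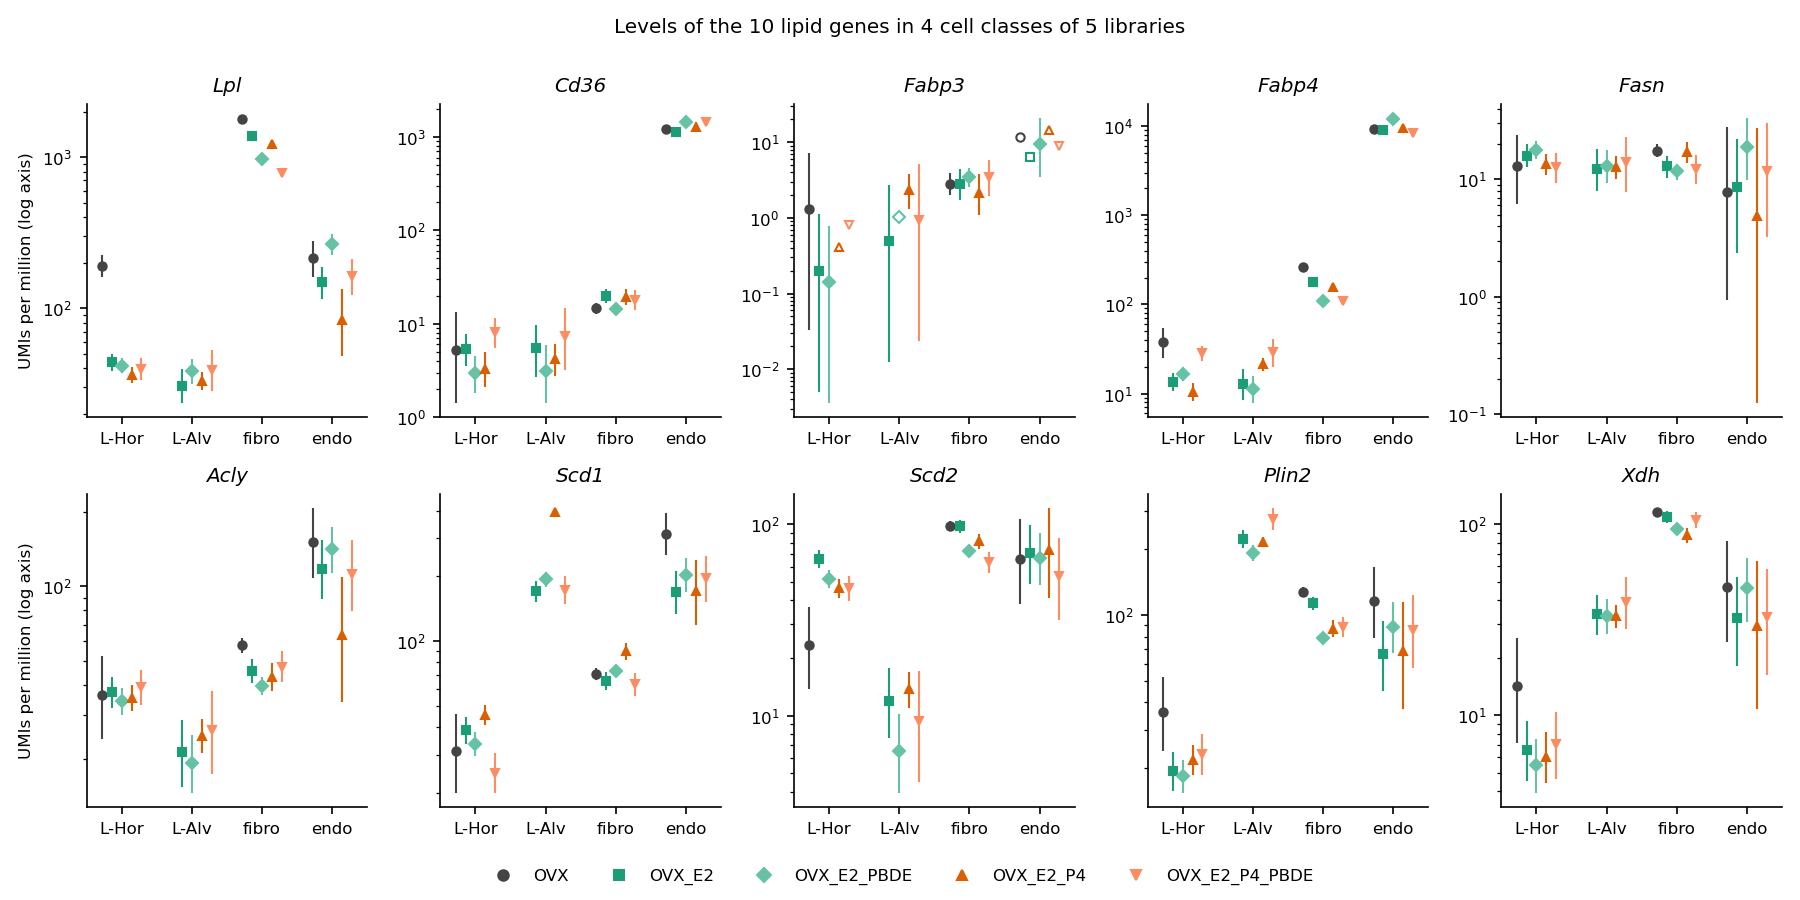
Level of each of the 10 genes (CPM, logarithmic axis) in the cell classes, with 1 point per library and 95% counting intervals as bars. Open points mark a sum of 0 UMIs and stand at the limit that 3 counts would give. *Lpl* is highest in fibroblast-like cells, *Cd36* and *Fabp4* stand far above the other classes shown in endothelial-like cells, and *Plin2* is highest in L-Alv-like cells.

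*Lpl* (chr8:68880491-68907448, + strand, mm10) was mainly a fibroblast transcript among the captured barcodes, which held nearly no adipocytes. Fibroblast-like cells held between 80.3% and 94.4% of all *Lpl* UMIs of a library. Their level was 1784 CPM in OVX, 1387 CPM in OVX_E2, 976 CPM in OVX_E2_PBDE, 1216 CPM in OVX_E2_P4 and 784 CPM in OVX_E2_P4_PBDE. Every fibroblast-like value lay above every luminal and endothelial-like value. Hematopoietic-like cells had 74.3 to 879 CPM, which overlapped the fibroblast-like range. That was 5.36% (OVX_E2) to 49.3% (OVX) of the fibroblast-like level, against summed fibroblast markers at 3.44% to 32.6% in the same libraries. In endothelial-like cells *Lpl* was at 214, 148, 265, 83.2 and 163 CPM in the same order, a log2 difference from fibroblast-like cells of -3.18 ± 0.27 (SE, 5 libraries, edgeR, Benjamini-Hochberg adjusted p = 8.57e-05). After thinning each cell to 3000 UMIs, 73.2% to 86.6% of fibroblast-like cells had an *Lpl* UMI (81.7% to 96.3% before thinning).

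Luminal cells held little *Lpl*. The L-Hor-like level was 191 CPM in OVX, 43.8 CPM in OVX_E2, 41.6 CPM in OVX_E2_PBDE, 36.1 CPM in OVX_E2_P4 and 39.6 CPM in OVX_E2_P4_PBDE, and L-Alv-like cells had 30.7 to 39.2 CPM in the 4 libraries that held them. L-Hor-like cells were below fibroblast-like cells by -4.53 ± 0.21 on the log2 scale (5 libraries, edgeR, adjusted p = 1.94e-08). Written as a percent of the fibroblast-like level of the same library, L-Hor-like *Lpl* was at 10.7%, 3.15%, 4.26%, 2.97% and 5.05%, in the order above. The summed fibroblast markers in those same cells stood at 9.18%, 5.19%, 7.07%, 3.77% and 6.11%. *Lpl* was therefore not detected above the level of fibroblast transcripts in L-Hor-like cells of the 4 treated libraries, and in OVX it stood at 10.7% against 9.18%. The share of these *Lpl* UMIs that came from free RNA or mixed droplets was not tested.

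Within the fibroblasts, *Lpl* differed widely between subsets. Clusters with the *Inmt* markers had 2383 CPM in OVX, 2973 CPM in OVX_E2, 2145 CPM in OVX_E2_PBDE and 2286 CPM in OVX_E2_P4, whereas clusters with the *Pi16* markers, a set known for adventitial fibroblasts, had 529.6 to 942 CPM over the 5 libraries. A *Col15a1* cluster was found only in OVX, at 4887 CPM, and in OVX_E2_P4_PBDE, at 1321 CPM. *Tnc* clusters had 836 to 1450 CPM in the 4 libraries that held them. The *Pi16* subset was the lowest of the subsets in each library, and it made up from 51.1% of fibroblast-like barcodes (OVX) to 73.8% (OVX_E2_P4_PBDE). Cluster boundaries were drawn in each library separately, and the subsets of different libraries are alike in their leading markers only.

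**Figure D2:**
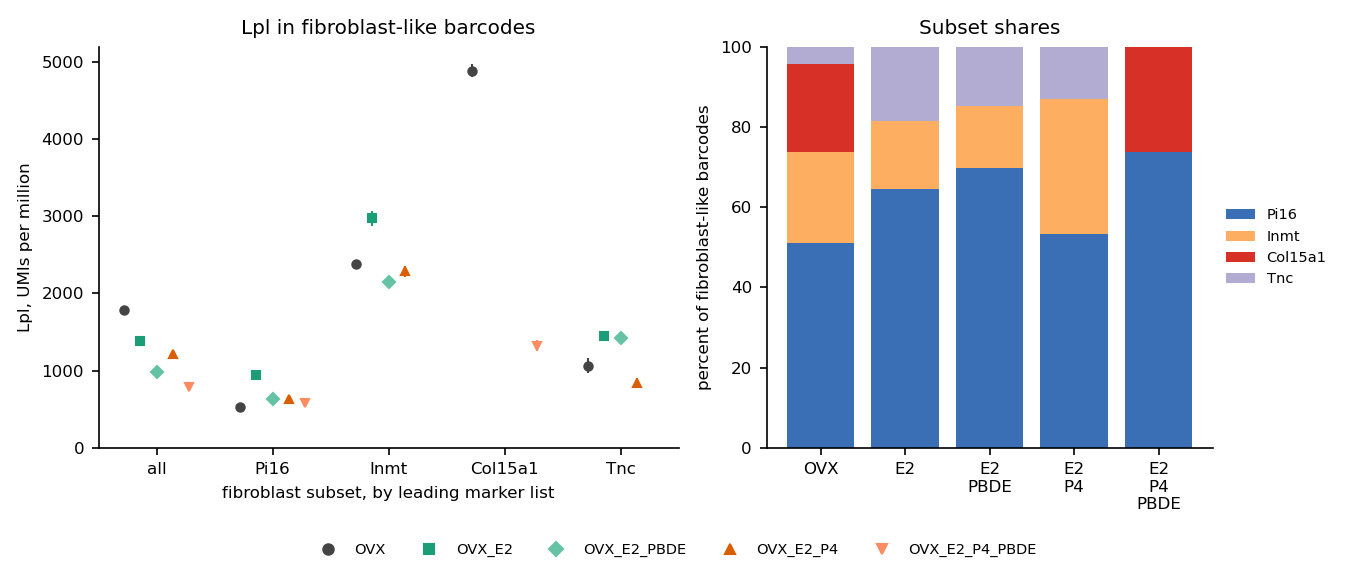
*Lpl* level (CPM) in all fibroblast-like cells and in their subsets, with 1 point per library and counting intervals as bars (left), and the percent of fibroblast-like barcodes in each subset (right, stacked bars). The *Pi16* clusters sit between 529.6 and 942 CPM in all 5 libraries, below the *Inmt* clusters of the 4 libraries that hold them.

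*Cd36* (chr5:17781690-17888801, - strand) had its highest level in endothelial-like cells. They held 48.4% (OVX_E2_P4) to 73.6% (OVX_E2_PBDE) of the *Cd36* UMIs of a library. The more numerous fibroblast-like cells held 10.4% (OVX_E2_P4_PBDE) to 34.6% (OVX). Endothelial-like cells had 1204 CPM in OVX, 1135 CPM in OVX_E2, 1456 CPM in OVX_E2_PBDE, 1286 CPM in OVX_E2_P4 and 1454 CPM in OVX_E2_P4_PBDE, while fibroblast-like cells had 14.3 to 20.0 CPM and luminal classes 2.13 to 8.14 CPM. The groups of values did not overlap. The endothelial-like level was 56.0-fold the fibroblast-like level (log2 5.81 ± 0.12, 5 libraries, edgeR, adjusted p = 1.72e-27). Barcodes with few pericyte UMIs had 1097 to 1426 CPM and those with more had 1161 to 1518 CPM, so the level was alike on either side of that split. Of the endothelial-like cells, 87.9% to 98.3% had a *Cd36* UMI after thinning (97.0% to 100% before), against 3.50% to 4.14% of fibroblast-like cells (4.97% to 7.22% before). The *Inmt* fibroblasts held more of it than the *Pi16* fibroblasts, with 33.6 to 74.6 CPM against 2.35 to 6.20 CPM. Among hematopoietic-like cells, barcodes led by myeloid markers had 40.3 to 131 CPM.

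The 250 bases upstream of the RefSeq start of *Cd36* are shown since this gene had the largest endothelial-like to fibroblast-like difference of the 9 of these genes that could be tested. The window is chr5:17835897-17836146 on the - strand of GRCm38.p6, and the RefSeq start lies within the longer annotated gene. Motifs searched on both strands were the E-box CACGTG, the CCAAT box CCAAT, the sterol regulatory element TCACNCCAC, the nuclear receptor half-site AGGTCA, the GC box GGGCGG and the TATA box TATAAA, and capitals mark their matches.
Cd36: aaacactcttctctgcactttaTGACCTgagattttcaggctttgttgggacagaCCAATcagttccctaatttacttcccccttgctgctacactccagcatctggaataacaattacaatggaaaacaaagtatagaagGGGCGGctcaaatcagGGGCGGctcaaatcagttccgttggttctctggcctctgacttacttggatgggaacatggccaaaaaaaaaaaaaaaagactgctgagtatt
It held a CCAAT box, a nuclear receptor half-site on the opposite strand and 2 GC boxes. Such letters are common, since 33.8% of 32851 RefSeq promoter windows of the same length held a CCAAT box, 14.0% a half-site, 32.7% a GC box, 12.4% a TATA box, 6.02% an E-box and 1.05% the sterol regulatory element. A match describes the sequence and does not show a bound site. RefSeq windows were found for 5 of the 10 genes, *Cd36*, *Acly*, *Fasn*, *Plin2* and *Fabp3*.

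*Fabp4* (chr3:10204088-10208576, - strand) followed *Cd36* in level. By share of UMIs, endothelial-like cells held 38.4% in OVX, where fibroblast-like cells held 57.9%. In the treated libraries endothelial-like cells held 59.2% (OVX_E2_P4) to 77.3% (OVX_E2_P4_PBDE). Endothelial-like cells had 9165 CPM in OVX, 9118 CPM in OVX_E2, 11976 CPM in OVX_E2_PBDE, 9484 CPM in OVX_E2_P4 and 8341 CPM in OVX_E2_P4_PBDE. The highest value of any other class was that of the fibroblast-like cells of OVX. The endothelial-like level was 45.3-fold the fibroblast-like level (log2 5.50 ± 0.29, edgeR, adjusted p = 1.83e-05). Fibroblast-like cells were at 260 CPM in OVX, 178 CPM in OVX_E2, 109 CPM in OVX_E2_PBDE, 156 CPM in OVX_E2_P4 and 110 CPM in OVX_E2_P4_PBDE. Their *Fabp4* lay in the same subsets as *Lpl*, with 413 to 633 CPM in *Inmt* and 338 to 582 CPM in *Col15a1* clusters against 16.8 to 28.7 CPM in *Pi16* clusters. L-Hor-like cells had 10.5 to 37.5 CPM and L-Alv-like cells 11.3 to 28.9 CPM, which is 0.0947% to 0.409% of the endothelial-like level. The luminal lineages did not pass the test of their difference (log2 0.29), but did without the OVX_E2_PBDE library (log2 0.55, edgeR, adjusted p = 0.0286), and without OVX_E2_P4 the difference had the other sign (log2 -0.17, adjusted p = 0.455).

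*Fabp3* (chr4:130308595-130315463, + strand), the heart and mammary form that is abundant in lactating gland, was close to undetected. Fibroblast-like cells had 2.14 to 3.51 CPM and basal-like cells 5.00 to 9.98 CPM, on 36 UMIs over all basal-like cells. L-Hor-like cells held 3 UMIs in all and L-Alv-like cells 17, of which 15 were in OVX_E2_P4. It could not be tested between endothelial-like and fibroblast-like cells or between the luminal lineages, and it was lower in L-Hor-like than in fibroblast-like cells (log2 -4.33 ± 0.54, edgeR, adjusted p = 5.17e-06).

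*Acly* (chr11:100476353-100528000, - strand) was present in every class and highest in endothelial-like cells, with 151 CPM in OVX, 118 CPM in OVX_E2, 141 CPM in OVX_E2_PBDE, 63.6 CPM in OVX_E2_P4 and 113 CPM in OVX_E2_P4_PBDE. All 5 values were above the 39.6 to 57.6 CPM of fibroblast-like cells (log2 0.93 ± 0.15, edgeR, adjusted p = 2.93e-06). L-Hor-like cells had 34.2 to 39.1 CPM and L-Alv-like cells 19.2 to 26.1 CPM, so the alveolar lineage was the lower of both luminal lineages in 4 of 4 libraries (log2 -0.58 ± 0.12, edgeR, adjusted p = 0.000146). *Fasn* (chr11:120805846-120824547, - strand) had no such pattern. It was at 11.7 to 17.6 CPM in fibroblast-like cells, 12.8 to 18.0 in L-Hor-like, 12.4 to 14.0 in L-Alv-like and 4.89 to 19.0 in endothelial-like cells, and the classes overlapped. None of the 3 class comparisons called it (adjusted p = 0.0961 for endothelial-like against fibroblast-like, 0.440 for L-Alv-like against L-Hor-like and 0.633 for L-Hor-like against fibroblast-like cells, edgeR). Endothelial-like *Fasn* rested on 23 UMIs in all, and it was called lower than in fibroblast-like cells without the OVX_E2_PBDE library (log2 -1.18, edgeR, adjusted p = 0.0166) and without the filter on low counts (log2 -0.81, edgeR, adjusted p = 0.0338).

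The windows upstream of *Acly* (chr11:100528001-100528250) and *Fasn* (chr11:120824548-120824797), both on the - strand, are shown side by side as those of synthesis genes with different class patterns. Capitals mark the same motifs.
Acly: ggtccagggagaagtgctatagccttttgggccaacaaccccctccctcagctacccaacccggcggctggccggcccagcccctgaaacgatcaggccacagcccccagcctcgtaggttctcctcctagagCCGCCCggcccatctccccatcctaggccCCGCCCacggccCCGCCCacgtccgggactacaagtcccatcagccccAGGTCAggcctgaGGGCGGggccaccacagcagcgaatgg
Fasn: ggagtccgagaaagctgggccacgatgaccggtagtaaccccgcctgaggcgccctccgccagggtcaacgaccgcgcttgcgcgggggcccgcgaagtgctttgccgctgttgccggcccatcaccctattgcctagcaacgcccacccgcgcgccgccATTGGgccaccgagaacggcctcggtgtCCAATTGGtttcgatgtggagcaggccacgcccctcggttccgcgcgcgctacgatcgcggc
The *Acly* window held 4 GC boxes and a half-site. The *Fasn* window held 3 matches of the CCAAT box, of which 2 overlap on opposite strands, and the letters of the other motifs were not in it.

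*Scd1* (chr19:44394455-44407879, - strand) and *Scd2* (chr19:44293674-44306864, + strand), which encode the same enzymatic step and lie close together on the chromosome, split the luminal lineages in opposite directions. *Scd1* in L-Alv-like cells was at 170 CPM in OVX_E2, 193 CPM in OVX_E2_PBDE, 396 CPM in OVX_E2_P4 and 173 CPM in OVX_E2_P4_PBDE, against 38.8, 33.6, 45.8 and 24.7 CPM in the L-Hor-like cells of those libraries. It was higher in L-Alv-like cells in 4 of 4 libraries (log2 2.74 ± 0.15, edgeR, adjusted p = 3.71e-07). *Scd2* was the reverse. L-Hor-like cells had 65.7, 51.8, 46.2 and 46.2 CPM and L-Alv-like cells 11.9, 6.53, 13.7 and 9.34 CPM (log2 -2.14 ± 0.16, edgeR, adjusted p = 4.37e-10). The ranges of the lineages did not overlap for either gene. Both genes are close relatives, and reads that matched the pair equally well would not have been counted, so the split rests on their distinct parts.

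Outside the epithelium, *Scd1* was at 315 CPM in OVX, 169 CPM in OVX_E2, 203 CPM in OVX_E2_PBDE, 171 CPM in OVX_E2_P4 and 196 CPM in OVX_E2_P4_PBDE in endothelial-like cells, against 63.4 to 89.8 CPM in fibroblast-like cells (log2 1.09 ± 0.13, edgeR, adjusted p = 2.26e-08). This call was lost when only barcodes with at most 5% mitochondrial UMIs were kept (log2 -0.18, adjusted p = 0.596, in the 3 libraries with enough cells). *Scd2* had 63.1 to 98.1 CPM in fibroblast-like and 53.3 to 73.4 CPM in endothelial-like cells (log2 -0.75 ± 0.15, edgeR, adjusted p = 5.57e-05). Within the fibroblasts *Scd1* was at 73.3 to 111 CPM in *Pi16* clusters and 28.8 to 78.7 CPM in *Inmt* clusters, with the *Pi16* value the higher in each of the 4 libraries that held both. *Lpl* and *Fabp4* had the reverse order. Differences between fibroblast subsets were not tested.

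**Figure D3:**
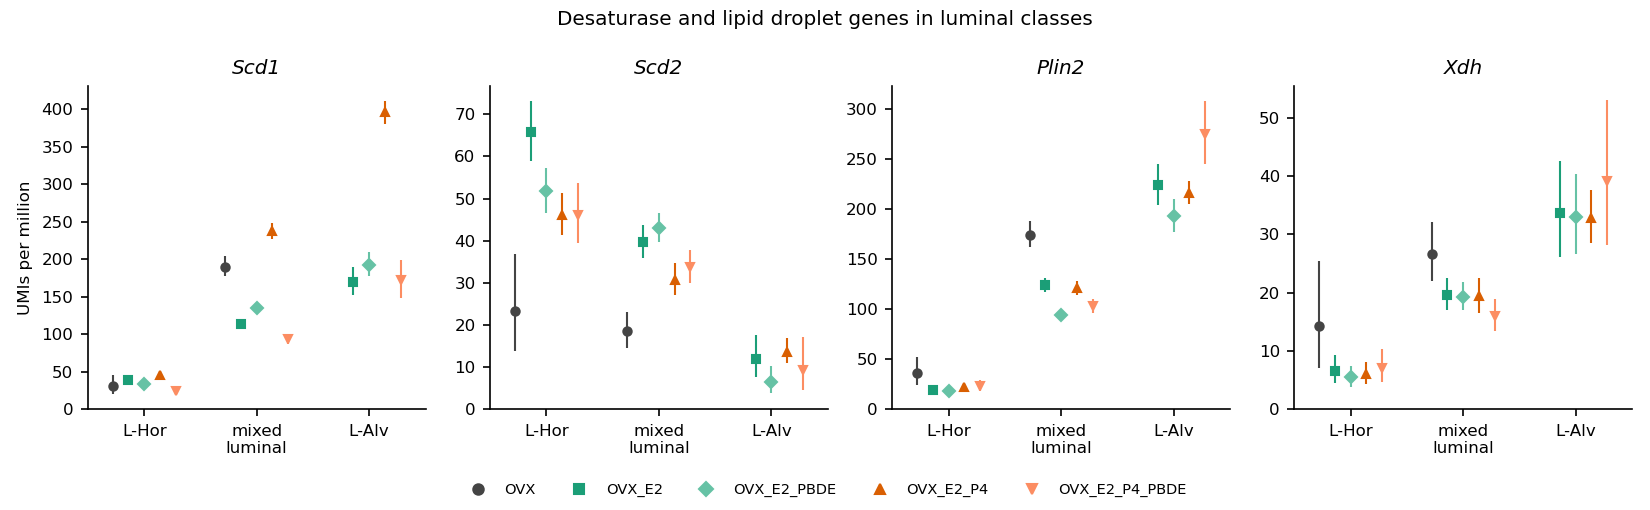
*Scd1*, *Scd2*, *Plin2* and *Xdh* levels (CPM) in L-Hor-like, mixed luminal and L-Alv-like cells, with 1 point per library and 95% counting intervals as bars. In the 4 libraries with both lineages, *Scd1*, *Plin2* and *Xdh* are higher in L-Alv-like than in L-Hor-like cells and *Scd2* is lower. The highest *Scd1* value, 396 CPM, is in OVX_E2_P4.

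*Plin2* (chr4:86648386-86670060, - strand) was highest in L-Alv-like cells, at 224 CPM in OVX_E2, 193 CPM in OVX_E2_PBDE, 216 CPM in OVX_E2_P4 and 275 CPM in OVX_E2_P4_PBDE. L-Hor-like cells of the same libraries had 18.4 to 23.4 CPM, and those of OVX had 36.2 CPM. The L-Alv-like level was 11.4-fold the L-Hor-like level (log2 3.51 ± 0.09, 4 of 4 libraries, edgeR, adjusted p = 3.26e-21). After thinning, 38.7% to 52.0% of L-Alv-like cells (76.6% to 85.4% before) and 4.63% to 7.07% of L-Hor-like cells (13.1% to 26.1% before) had a *Plin2* UMI. Fibroblast-like cells were intermediate, with 79.2 to 128 CPM, and endothelial-like cells had 66.5 to 117 CPM. Barcodes led by myeloid markers had 87.9 to 169.5 CPM.
Plin2: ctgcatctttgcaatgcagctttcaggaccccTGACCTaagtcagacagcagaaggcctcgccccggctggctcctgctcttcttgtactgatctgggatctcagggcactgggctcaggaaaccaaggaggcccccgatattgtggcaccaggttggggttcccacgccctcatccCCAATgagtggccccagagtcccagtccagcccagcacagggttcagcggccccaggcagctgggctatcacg
This window upstream of *Plin2* (chr4:86670060-86670309, - strand), shown because the gene had the largest luminal lineage difference of the 9 tested, held a CCAAT box and a half-site on the opposite strand, in capitals.

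*Xdh* (chr17:73883895-73950196, - strand) was highest in fibroblast-like cells, at 115 CPM in OVX, 109 CPM in OVX_E2, 93.9 CPM in OVX_E2_PBDE, 87.4 CPM in OVX_E2_P4 and 105 CPM in OVX_E2_P4_PBDE. L-Alv-like cells had 32.9 to 39.2 CPM and L-Hor-like cells 5.48 to 14.2 CPM, and the groups did not overlap. L-Alv-like cells were above L-Hor-like cells in 4 of 4 libraries (log2 2.54 ± 0.14, edgeR, adjusted p = 3.59e-14). The L-Alv-like level was 30.9% to 37.6% of the fibroblast-like level, against fibroblast markers at 2.65% to 4.98%. The L-Hor-like level was 5.84% to 12.4%, against fibroblast markers at 3.77% to 9.18%. *Xdh* had overlapping ranges in *Pi16* fibroblasts (108 to 130 CPM) and *Inmt* fibroblasts (79.2 to 116 CPM), whereas *Lpl* was lower in the *Pi16* clusters. The *Tnc* clusters of the treated libraries had the lowest *Xdh* (21.4 to 34.0 CPM).

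Over the 10 genes, L-Alv-like against L-Hor-like cells gave 3 higher (*Scd1*, *Plin2*, *Xdh*) and 2 lower (*Scd2*, *Acly*) of 9 tested, where 31.8% of 10702 genes were higher and 31.1% lower (edgeR, adjusted p under 0.05). Endothelial-like against fibroblast-like cells gave 4 higher (*Cd36*, *Fabp4*, *Scd1*, *Acly*) and 4 lower (*Lpl*, *Xdh*, *Scd2*, *Plin2*) of 9 tested, where 23.7% of 9935 genes were higher and 27% lower. The median log2 difference of the 9 was -0.64, beside -0.03 for all genes. *Plin2* and *Scd2* lost their calls in this contrast when only library sizes were used for scaling (log2 -0.19, adjusted p = 0.266, and log2 -0.30, adjusted p = 0.0874), and *Plin2* also with at most 5% mitochondrial UMIs (log2 -0.33, adjusted p = 0.218). L-Hor-like against fibroblast-like cells gave 0 higher and 9 lower of 10, where 35.5% of 11638 genes were higher and 36.9% lower, and the median was -2.06, beside -0.01 for all genes. *Scd1* lost its call there when the barcodes with the highest Scrublet scores were left out in place of the mixed clusters (log2 -0.10, adjusted p = 0.759). *Fasn*, the gene not called in that contrast, had an unadjusted p of 0.590 in edgeR, so 0 were higher without adjustment too, and DESeq2 also called 0 higher.

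**Figure D4:**
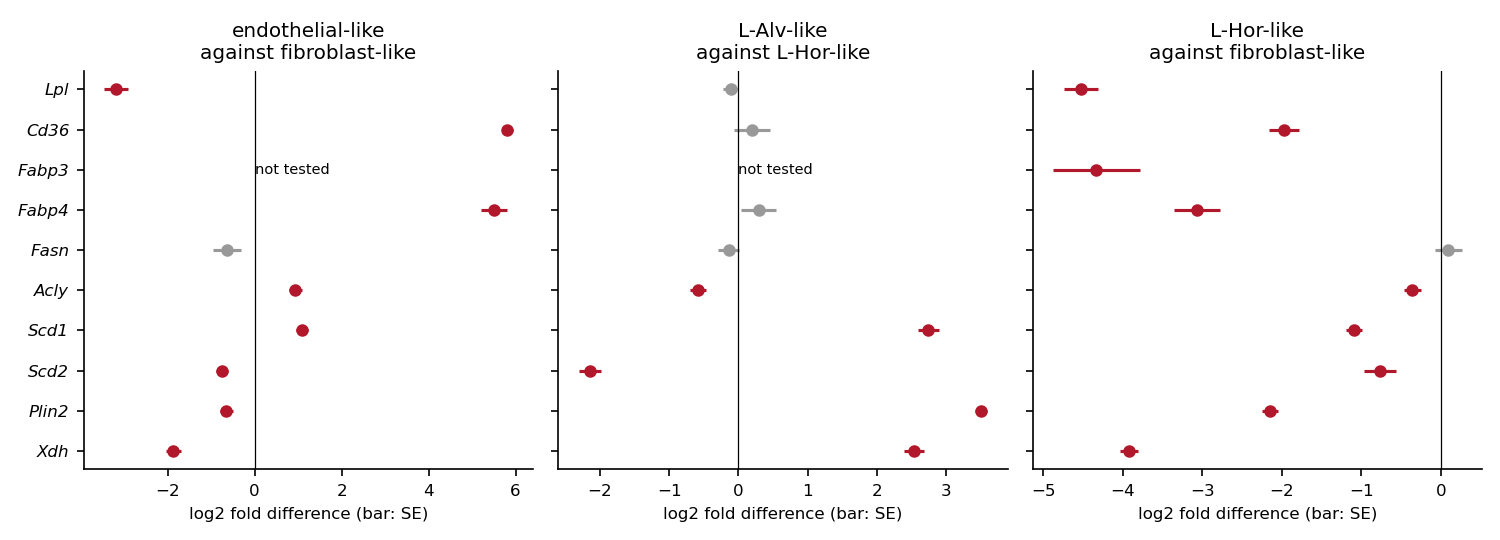
Log2 differences between cell classes from edgeR for the tested genes, with standard errors as bars, red for an adjusted p under 0.05 and grey otherwise. *Cd36* (5.81) and *Fabp4* (5.50) lie far to the endothelial-like side, *Plin2* (3.51), *Scd1* (2.74) and *Xdh* (2.54) to the L-Alv-like side.

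A further 59 genes of the same pathways were counted beside them. The lists were not tested as sets. Over all genes, 23.7% were higher and 27% lower in endothelial-like than in fibroblast-like cells. Among 15 uptake genes, 4 were higher and 6 lower in that contrast (edgeR, adjusted p under 0.05). Those higher included *Gpihbp1*, the capillary anchor of lipoprotein lipase (log2 9.48 ± 0.17), and the binding protein *Fabp5* (log2 4.20 ± 0.16), and those lower included the receptors *Vldlr* (log2 -3.41 ± 0.27) and *Lrp1* (log2 -3.44 ± 0.16). *Gpihbp1* was at 699 CPM in OVX, 704 CPM in OVX_E2, 818 CPM in OVX_E2_PBDE, 675 CPM in OVX_E2_P4 and 554 CPM in OVX_E2_P4_PBDE, so the lipase and its anchor were highest in different classes. Of 14 genes of synthesis, 5 of 12 tested were higher and 3 lower, with *Thrsp* (Spot 14, a lipogenic factor) at 77.0 to 135 CPM in endothelial-like and at most 0.15 CPM in fibroblast-like cells. Of 10 regulators, 3 of 8 tested were higher and 3 lower. The nuclear receptor *Pparg* was among those higher (log2 2.38 ± 0.20) and *Insig1*, which restrains sterol-sensing synthesis, among those lower (log2 -2.28 ± 0.27). Of 12 glyceride genes, 4 of 11 tested were higher, among them the lipases *Lipe* (log2 3.92 ± 0.28) and *Mgll* (log2 2.45 ± 0.11), and 2 were lower. Of 8 droplet genes, 3 of 4 tested were higher and 1 lower.

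Between the luminal lineages, 5 of the 6 droplet genes tested were higher in L-Alv-like cells and 1 was lower. For this contrast, 31.8% of all genes were higher and 31.1% lower. *Btn1a1*, the partner of *Xdh* in droplet release, was at 54.4 to 79.3 CPM in L-Alv-like and 0 to 2.62 CPM in L-Hor-like cells (log2 5.58 ± 0.20). Of 13 uptake genes tested, 6 were higher and 2 lower, with *Fabp5* (log2 5.04 ± 0.16), the acyl-CoA synthetase *Acsl1* (log2 4.58 ± 0.30) and the acyl-CoA binding protein *Dbi* (log2 2.80 ± 0.08) among those higher. The desaturases *Fads1* (log2 3.26 ± 0.16) and *Fads2* (log2 3.84 ± 0.38) were among 5 synthesis genes of 11 that were higher, and 4 were lower. Of 11 glyceride genes, 4 were higher and 5 lower, with *Dgat2*, which completes triglyceride, lower in L-Alv-like cells (log2 -4.06 ± 0.15) at 4.47 to 9.40 CPM against 77.9 to 125.6 CPM in L-Hor-like cells of the same libraries. Of 7 regulators tested, 1 was higher and 1 lower.

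In L-Hor-like against fibroblast-like cells, 3 of 14 uptake genes were higher and 7 lower, 2 of 11 synthesis genes were higher and 5 lower, and 6 of 11 glyceride genes were higher and 4 lower. For this contrast, 35.5% of all genes were higher and 36.9% lower. *Dgat2* (log2 3.49 ± 0.18) and *Lipe* (log2 3.26 ± 0.20) were among the glyceride genes that were higher. Of 5 droplet genes tested, 2 were higher and 3 lower, and of 8 regulators, 2 were higher and 3 lower.

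Between treatments, a ratio of CPM between a pair of libraries was counted past 2-fold when it was at least 2 or at most 0.5 and rested on at least 50 UMIs over both. The intervals given are 95% exact intervals that cover counting error only. The pairs counted are a gene in L-Hor-like, L-Alv-like, fibroblast-like or endothelial-like cells.

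With E2 (OVX_E2 against OVX), 3 of 24 pairs were past 2-fold, all in L-Hor-like cells, beside 6.03% of such pairs over all genes and 9.39% of genes in L-Hor-like cells. *Scd2* was at 23.3 CPM in OVX and 65.7 CPM in OVX_E2, a ratio of 2.82 (1.76 to 4.82) on 18 and 329 UMIs. The mixed luminal clusters, which the pairs leave out, gave 18.5 and 39.7 CPM, a ratio of 2.15 (1.68 to 2.77). Their summed L-Hor markers were 2897 and 3578 CPM, and their L-Alv markers 2378 and 1751 CPM. The part of this difference in lineage markers in the ratio was not tested. After thinning, 5.43% of L-Hor-like cells in OVX and 19.2% in OVX_E2 had a *Scd2* UMI (18.5% and 44.4% before, at median depths of 6540 and 9525 UMIs). *Lpl* went the other way, from 191 to 43.8 CPM (0.228, 0.185 to 0.283), and so did *Fabp4*, from 37.5 to 13.6 CPM (0.362, 0.231 to 0.580). The summed fibroblast markers in these cells also went from 2570 to 1631 CPM, and their part in the values of *Lpl* and *Fabp4* was not tested. The median ratio over all 7390 genes deep enough in L-Hor-like cells was 0.849, and relative to it the ratios were 3.32 for *Scd2*, 0.269 for *Lpl* and 0.426 for *Fabp4*. *Scd1* was not past the limit (31.1 and 38.8 CPM, 1.25, 0.814 to 2.00), but was past it at 3.29 when the barcodes with the highest Scrublet scores were left out in place of the mixed clusters, where *Fabp4* was no longer past it (0.709). In that setting mixed clusters joined a luminal class. OVX then held 168 L-Alv-like barcodes, and OVX_E2 held 604 L-Hor-like barcodes in place of 475. The part of this change in the ratios was not tested.

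In fibroblast-like cells, *Lpl* was lower in OVX_E2 than in OVX when all clusters were summed, with a ratio of 0.777 (0.759 to 0.796). Within the subsets it was higher, with a ratio of 1.78 in *Pi16* clusters (529.6 to 942 CPM) and 1.25 in *Inmt* clusters (2383 to 2973 CPM). The *Col15a1* cluster of OVX, at 4887 CPM and 22.0% of its fibroblast-like barcodes, had no counterpart in OVX_E2. The whole class and the subsets present in both libraries thus gave opposite directions. *Fabp4* was at 0.685 (0.641 to 0.732) over the class, while *Scd2* (0.993) and *Xdh* (0.944) stayed close to 1. The part of the *Col15a1* cluster in the *Fabp4* ratio was not tested. Endothelial-like *Cd36* (0.943, 0.818 to 1.09) and *Fabp4* (0.995, 0.946 to 1.05) were alike in both libraries within counting error, and endothelial-like *Scd1* was at 0.539 (0.390 to 0.744). Of the endothelial-like barcodes, 69.7% of 33 in OVX and 47.7% of 44 in OVX_E2 had over 5% mitochondrial UMIs. The part of this difference in the *Scd1* ratio was not tested.

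With P4 added to E2 (OVX_E2_P4 against OVX_E2), 1 of 31 pairs was past 2-fold, beside 1.94% over all genes and 2.09% in L-Alv-like cells. This was *Scd1* in L-Alv-like cells, at 170 CPM in OVX_E2 and 396 CPM in OVX_E2_P4, a ratio of 2.33 (2.08 to 2.61) on 344 and 2542 UMIs. The mixed luminal clusters had 113 and 238 CPM (2.10, 1.96 to 2.26). Summed L-Alv markers of the mixed clusters were 1751 and 2845 CPM, and their L-Hor markers 3578 and 3372 CPM. The part of this difference in lineage markers in the ratio was not tested. After thinning, 31.9% of L-Alv-like cells in OVX_E2 and 55.0% in OVX_E2_P4 had a *Scd1* UMI (66.7% and 80.4% before). In the same cells *Fabp4* was at 1.66 (1.08 to 2.63) on 26 and 137 UMIs. The intervals of *Plin2*, *Xdh*, *Fasn* and *Acly* held 1. *Plin2* was at 0.966 (0.868 to 1.08), *Xdh* at 0.977 (0.740 to 1.30), *Fasn* at 1.03 (0.653 to 1.69) and *Acly* at 1.16 (0.827 to 1.67). The summed L-Alv markers of these cells were 3701 CPM in OVX_E2 and 5591 CPM in OVX_E2_P4. In L-Hor-like cells *Scd1* was at 1.18 (0.986 to 1.42) and in fibroblast-like cells at 1.36 (1.20 to 1.55).

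With PBDE added to E2 (OVX_E2_PBDE against OVX_E2), 0 of 32 pairs were past 2-fold, beside 1.75% over all genes. Fibroblast-like cells had lower values for *Lpl* (0.704, 0.686 to 0.723), *Fabp4* (0.613, 0.568 to 0.661), *Plin2* (0.699, 0.637 to 0.767) and *Scd2* (0.742, 0.672 to 0.820), beside a median of 0.890 over all genes of the class. Relative to that median they were at 0.791, 0.689, 0.786 and 0.835. *Lpl* was also lower within *Pi16* clusters (0.675) and *Inmt* clusters (0.722). In *Tnc* clusters, 18.5% of fibroblast-like barcodes in OVX_E2 and 14.8% in OVX_E2_PBDE, *Lpl* was nearly the same in both libraries. *Xdh* was at 0.971 and *Acly* at 0.977 of the median. In endothelial-like cells *Lpl* was at 1.79 (1.34 to 2.40), *Fabp4* at 1.31 (1.26 to 1.36) and *Cd36* at 1.28 (1.15 to 1.43), on 72 and 44 barcodes whose summed fibroblast markers were 1797 and 1957 CPM. *Scd1* in L-Alv-like cells was at 1.13 (0.990 to 1.30).

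With PBDE added to E2 and P4 (OVX_E2_P4_PBDE against OVX_E2_P4), 3 of 31 pairs were past 2-fold, beside 3.59% over all genes. *Scd1* in L-Alv-like cells was at 396 CPM in OVX_E2_P4 and 173 CPM in OVX_E2_P4_PBDE, a ratio of 0.436 (0.374 to 0.507), where 5.34% of genes in L-Alv-like cells were past 2-fold. The mixed luminal clusters had 238 and 93.9 CPM (0.394, 0.363 to 0.428), L-Hor-like cells 45.8 and 24.7 CPM (0.540, 0.423 to 0.683) and fibroblast-like cells 89.8 and 63.4 CPM (0.706, 0.605 to 0.823). The summed L-Alv markers of the L-Alv-like cells were 5591 and 4575 CPM, and those of the mixed luminal clusters 2845 and 2026 CPM. The part of these differences in the ratios was not tested. The L-Alv-like *Scd1* value in OVX_E2_P4_PBDE was close to those of OVX_E2 and OVX_E2_PBDE, and among L-Alv-like values OVX_E2_P4 stood apart. Between the PBDE libraries, with and without P4, the L-Alv-like ratio was 0.894 (0.753 to 1.06). It was 0.692 (0.637 to 0.752) in mixed luminal clusters, 0.735 (0.571 to 0.940) in L-Hor-like and 0.872 (0.757 to 1.00) in fibroblast-like cells. Mixed luminal *Scd1* spread from 93.9 to 238 CPM over the 5 libraries, with a median of 136 CPM. In OVX these clusters held 792 *Scd1* UMIs among 4162279 UMIs. Both comparisons that called *Scd1* share the OVX_E2_P4 library and are not independent. The other pairs past 2-fold were in L-Hor-like cells, with *Cd36* from 3.31 to 8.14 CPM (2.46, 1.39 to 4.40) and *Fabp4* from 10.5 to 28.5 CPM (2.72, 2.01 to 3.71), where 3.01% of genes were past 2-fold. With Scrublet scores in place of the mixed clusters neither was past 2-fold (1.98 and 1.95). Both stayed under 1% of their endothelial-like level, and the summed endothelial markers of the L-Hor-like cells were 19.6 and 19.3 CPM.

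In fibroblast-like cells *Lpl* was at 0.645 (0.618 to 0.673) in this comparison, but at 0.919 within the *Pi16* clusters, and the *Inmt* clusters of OVX_E2_P4, at 33.9% of its fibroblast-like barcodes, had no counterpart in OVX_E2_P4_PBDE. Over the class, *Fabp4* was at 0.703 (0.625 to 0.789) and *Scd2* at 0.777 (0.664 to 0.909). *Plin2* (1.02, 0.885 to 1.17) and *Acly* (1.10, 0.905 to 1.34) were not distinguishable from 1 within counting error. The part of the change in subsets in the *Fabp4* ratio was not tested.

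**Figure D5:**
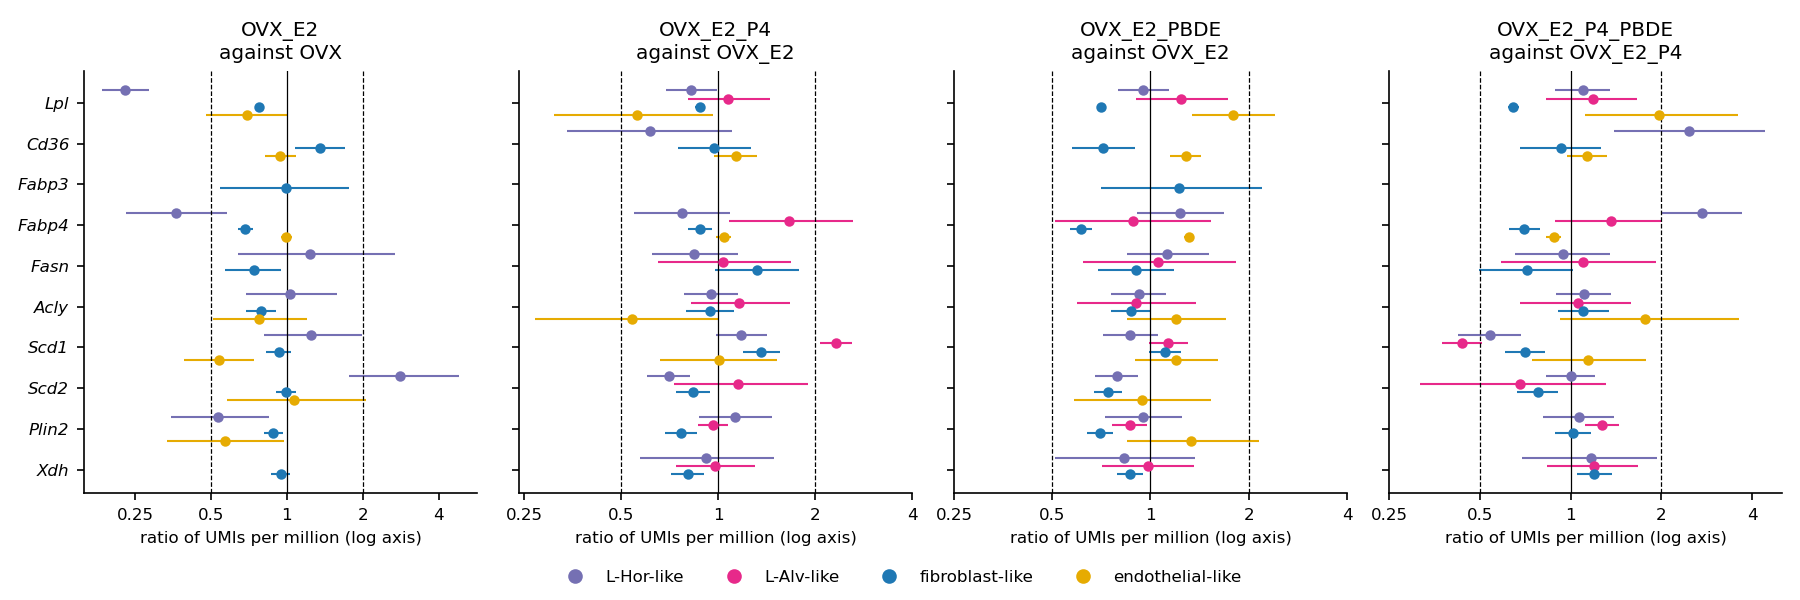
Ratio of levels between libraries for each gene and class (logarithmic axis) with 95% counting intervals, in the 4 comparisons, for values on at least 50 UMIs. Most ratios lie between 0.5 and 2, and *Scd1* in L-Alv-like cells lies on either side of that range, at 2.33 with P4 and at 0.436 with PBDE added to E2 and P4.

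Of the 59 other pathway genes, 30 were deep enough in L-Hor-like cells with E2, and 4 of them were past 2-fold higher and 1 lower, beside 2.57% and 6.82% of all genes in that class. Among those higher, *Slc27a1* (2.10, 0.857 to 6.67) and *Elovl5* (2.20, 0.814 to 8.35) had intervals that held 1, on 5 and 4 UMIs in OVX. The highest ratio was that of the malic enzyme *Me1*, a source of NADPH for synthesis, at 5.18 CPM in OVX and 23.0 in OVX_E2 (4.44, 1.69 to 16.6), on 4 UMIs in OVX. With E2 in fibroblast-like cells, 3 of 48 deep enough were lower and 0 higher, beside 4.18% of all genes in either direction. Of all genes in that class, 1.56% were lower and 2.62% higher. The pathway genes that were lower included *Insig1*, at 148 CPM in OVX and 69.7 in OVX_E2 (0.472, 0.426 to 0.522). *Insig1* was lower again with PBDE added to E2, at 33.2 CPM (0.476, 0.418 to 0.542). In L-Hor-like cells, *Angptl4*, a secreted inhibitor of lipoprotein lipase, was at 23.3 CPM in OVX, 62.7 CPM in OVX_E2, 72.8 CPM in OVX_E2_PBDE, 18.6 CPM in OVX_E2_P4 and 61.9 CPM in OVX_E2_P4_PBDE. It was past 2-fold with E2 (2.69, 1.68 to 4.60), with P4 (0.297, 0.241 to 0.364) and with PBDE added to E2 and P4 (3.33, 2.68 to 4.15). In the same order, 9.39%, 1.54% and 3.01% of all genes in that class were past 2-fold. The comparisons share the OVX_E2 or the OVX_E2_P4 library and are not independent. In L-Alv-like cells with PBDE added to E2 and P4, 4 of 42 were lower and 1 higher, beside 4.25% and 1.09% of all genes in that class, with *Fabp5* (0.450, 0.324 to 0.609) among those lower. The others lower were *Rxra*, *Dgat1* and *Acsl1*, on 3, 2 and 9 UMIs in OVX_E2_P4_PBDE. The interval of *Rxra* held 1 (0.333, 0.0666 to 1.03).

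Profiles over 38 pairs of a library and a class gave a description of which genes went together. The points share libraries, and most of the correlation lies between classes. *Cd36* and *Fabp4* had a Pearson correlation of 0.94 on the log2(CPM + 10) scale, *Acly* with *Fabp4* 0.89, *Acly* with *Cd36* 0.87 and *Lpl* with *Xdh* 0.82, while *Scd1* with *Scd2* gave -0.08 and *Fasn* with *Acly* -0.36. Among 12296 other genes, the most alike were *Serping1* for *Lpl* (0.97), *Cd300lg* for *Cd36* (0.99), *Hotairm1* for *Fabp4* (0.98), *Rem1* for *Acly* (0.93), *Mnda* for *Xdh* (0.92), *Slc1a1* for *Scd1* (0.90), *Fkbp1a* for *Scd2* (0.84), *Tceal5* for *Fabp3* (0.84), *Lipa* for *Plin2* (0.82) and *Fancm* for *Fasn* (0.61).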

How the data were processed

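The authors aligned the reads to mm10 with Cell Ranger 2.0.0 and deposited UMI counts per gene and called barcode, without normalization, in 5 matrices of 20293934 (OVX), 29590862 (OVX_E2), 42012988 (OVX_E2_PBDE), 32648416 (OVX_E2_P4) and 19982067 (OVX_E2_P4_PBDE) UMIs. Reads were not used here. Called barcodes began at 3374 to 5395 UMIs, and no filter on barcodes was added beyond 500 genes, 1000 UMIs and 10% mitochondrial UMIs.

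Each library was clustered with Seurat 5.3.0 (2000 variable genes without the 10 genes and their pathway lists, 10 principal components, 20 neighbours, resolution 0.3 for OVX and 0.5 otherwise). A cluster took the name of the marker list with the highest score, of at least 0.2. It was called mixed when another lineage also reached 0.25 and at least 0.4 of the highest score. A cluster with proliferation and epithelial scores of at least 0.5 was called proliferating epithelial instead. These limits were set after the clusters had been seen. Mixed clusters, which hold putative doublets, were left out of the classes, and Scrublet (scanpy 1.11.5, expected rate 20%) served as an alternative. In that alternative the barcodes with the highest 20% of scores were left out. The rest of each mixed cluster joined the class of its better-scoring lineage, which could differ between libraries. The members and lists were chosen with earlier results of these data known.

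Counts were summed per library and class. Levels are given in CPM with exact Poisson intervals and ratios with exact conditional 95% intervals (scipy 1.17.1), which cover counting error only. Where a sum is 0, a limit of 3 counts is used. Each barcode was thinned to 3000 UMIs before cells with a UMI were counted. Between groups there was no test, since each had 1 library. Classes with at least 20 cells were compared with edgeR 4.0.16 (quasi-likelihood, TMM, library as a block, Benjamini-Hochberg adjustment, 0.05). All 10 genes are described, and other pathway genes were named from those past 2-fold, or among the deepest or most changed of their class. The latter were chosen after their values were seen. Tested on simulated L-Alv-like against L-Hor-like data with 10674 genes, edgeR recovered 60 of 100 genes changed 2-fold and 99 of 100 changed 4-fold. In simulated L-Hor-like libraries, 189 of 189 genes changed 4-fold were past 2-fold. Alternatives changed the mitochondrial limit, the resolution, the doublet rule, the filter, the scaling, the fold limit, the test (DESeq2 1.42.0) and the libraries. Positions came from GENCODE release M21 and sequences from RefSeq (GRCm38.p6).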

Additional observations from a re-analysis of the deposited data

Results flagged for a closer look

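With PBDE added, 32 pairs of a gene and a class were deep enough on E2 alone and 31 on E2 with P4. Of those deep enough in both, 3 had ratios on opposite sides of 1, with counting intervals that excluded 1. The share of all genes that did so was not computed, so this count has no background beside it. The 3 differences were not tested against variation between animals, since each ratio compares 1 library with 1 library. *Fabp4* in endothelial-like cells had ratios of 1.31 and 0.88, with levels of 9118 CPM in OVX_E2, 11976 CPM in OVX_E2_PBDE, 9484 CPM in OVX_E2_P4 and 8341 CPM in OVX_E2_P4_PBDE. The ratio of 0.88 rested on 28 barcodes in OVX_E2_P4 and 58 in OVX_E2_P4_PBDE. Their L-Hor markers summed to 1252 and 619 CPM, and 60.7% and 31.0% of them had over 5% mitochondrial UMIs. The part of these differences in the *Fabp4* ratio was not tested. *Plin2* in L-Alv-like cells had ratios of 0.863 and 1.27, from 224 to 193 CPM and from 216 to 275 CPM. *Xdh* in fibroblast-like cells had ratios of 0.864 and 1.2, from 109 to 93.9 CPM and from 87.4 to 105 CPM. All of these stayed within 2-fold. Divided by the median ratio of all genes in the class, which was 0.890 in fibroblast-like and 0.900 in L-Alv-like cells with PBDE on E2, *Xdh* was at 0.971 (0.886 to 1.06) and *Plin2* at 0.959 (0.846 to 1.09), so that the opposite sides of these 2 genes no longer exceeded counting error.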

How the results depend on the processing

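Of the class comparisons, the number of the 10 genes called ranged over all alternatives from 6 to 9 for endothelial-like against fibroblast-like cells, from 5 to 6 for L-Alv-like against L-Hor-like cells and from 8 to 9 for L-Hor-like against fibroblast-like cells. Leaving out each library in turn gave 8 to 9, 5 to 6 and 9. Without the library as a block (no pairing of classes within a library), the counts of calls were 8, 5 and 9. The directions that turned were *Scd1* in endothelial-like against fibroblast-like cells with at most 5% mitochondrial UMIs (log2 -0.18), *Lpl* in L-Alv-like against L-Hor-like cells with Scrublet scores in place of mixed clusters (0.040), *Fabp4* in the same contrast with Scrublet scores (-0.034) and without OVX_E2_P4 replicate 1 (-0.17, against up to 0.55 with another library left out), and *Fasn* in L-Hor-like against fibroblast-like cells without OVX_E2_PBDE replicate 1 (-0.10, against up to 0.24). With Scrublet scores the mixed luminal clusters counted as L-Hor-like or L-Alv-like cells. The cause was not tested.

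Counts of pairs past 2-fold are small and moved with the limits. With E2 they went from 3 to 5 without a minimum of UMIs and with 1 UMI added, and to 6 at 1.5-fold. With P4 they went from 1 to 3 with Scrublet scores, to 3 without a minimum and to 5 at 1.5-fold. With PBDE on E2 they went from 0 to 1 with at most 5% mitochondrial UMIs, where *Lpl* in endothelial-like cells was at 3.25, to 2 without a minimum and to 2 at 1.5-fold. With PBDE on E2 and P4 they went from 3 to 7 at 1.5-fold. With Scrublet scores they stayed at 3, but *Cd36* (1.98) and *Fabp4* (1.95) in L-Hor-like cells fell short of 2-fold, and *Plin2* (2.42) and *Xdh* (2.49) in L-Hor-like cells were past it. Mixed clusters joined a luminal class in this setting. L-Hor-like barcodes went from 748 to 751 in OVX_E2_P4 and from 601 to 825 in OVX_E2_P4_PBDE. The part of this change in the ratios was not tested. *Scd1* in L-Alv-like cells kept ratios of 2.30 to 2.48 with P4 and 0.438 to 0.459 with PBDE on E2 and P4 under 5 alternatives each, and *Scd2* in L-Hor-like cells kept 2.21 to 3.32 with E2. *Fabp4* in L-Hor-like cells was at 0.709 with E2 under Scrublet scores. Depth limits *Fabp3* in every class, *Fasn* in endothelial-like cells and all luminal values of OVX, which held 92 L-Hor-like barcodes.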

Other observations

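Basal-like and hematopoietic-like cells entered no comparison. Basal-like *Lpl* was at 114 CPM in OVX, 120 CPM in OVX_E2, 36.4 CPM in OVX_E2_PBDE, 29.3 CPM in OVX_E2_P4 and 30.5 CPM in OVX_E2_P4_PBDE, on 285 UMIs in all. Basal-like *Scd1* was at 21.9, 30.6, 75.0, 53.2 and 89.5 CPM in the same order, on 308 UMIs. The summed L-Alv markers of these basal-like cells were 53.5, 105, 794, 250 and 831 CPM. Their L-Hor markers were 60.8, 334, 939, 390 and 1197 CPM. The part of these luminal transcripts in the *Scd1* values was not tested. Barcodes led by T, NK or B cell markers had *Acly* at 54.5 to 62.4 CPM, above the 17.5 to 44.0 CPM of barcodes led by myeloid markers in every library. These were 15 to 65 lymphoid and 35 to 84 myeloid barcodes per library. All hematopoietic-like cells together held 15 to 42 *Acly* UMIs per library, and the difference was not tested. *Lpl* in the lymphoid barcodes ranged from 37.9 CPM in OVX_E2 to 989 CPM in OVX, and their summed fibroblast markers from 1.98% to 43.4% of the fibroblast-like level.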
